A study of Mus musculus with 9 samples.

Results

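The nuclear genes for the subunits of the mitochondrial respiratory chain were followed in mouse mammary cells. A gene was taken where its symbol marks it as a subunit of complex I (Nduf genes of the a, b, c, s and v classes), complex II (Sdh), complex III (Uqcr, with Cyc1), complex IV (Cox4 to Cox8) or complex V (Atp5), and Cycs was added as the mobile carrier. The symbols named 82 genes among the 18194 genes with a probe set of their own. Of these, 33 belong to complex I, 4 to complex II, 9 to complex III, 18 to complex IV and 17 to complex V, and 1 codes for cytochrome c. Ndufa4 was counted in complex IV, where its product is now placed. Where a gene had several probe sets, the brightest by its 9-array mean was read. The symbol rule itself used no measured value, but it was set with earlier results of these data known. None of the 13 subunit genes carried by mitochondrial DNA had a probe set of its own.

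3 kinds of sample were compared on Affymetrix arrays, with 3 biological replicates each, labelled A, B and C. The first were organoids from yMaSCs, stem-like cells made from luminal differentiated (LD) cells that carried a doxycycline-inducible lentivirus for wild-type YAP with its rtTA activator. Doxycycline had been given for 7 days and then withdrawn. The second were organoids from native mammary stem cells (MaSCs), and the third were LD cells sorted as EpCAM-high, CD49f-low and CD61-negative. Both kinds of organoid grew in pure Matrigel under Advanced DMEM/F12 with EGF, bFGF, heparin, noggin and R-spondin 1, whereas LD cells were lysed fresh after sorting. Between MaSC organoids and LD cells, identity of the starting cell, culture and time outside the gland therefore cannot be told apart. The yMaSC organoids came from LD cells. Between them and LD cells, the lentivirus, the doxycycline-induced YAP, culture and time outside the gland cannot be told apart. The labels give no strain or age.

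The respiratory chain sits in the inner membrane of the mitochondrion. Complex I takes electrons from NADH through a matrix arm and pumps protons through a membrane arm, complex II feeds in electrons from succinate, and both reduce ubiquinone. Complex III passes the electrons to cytochrome c, complex IV hands them to oxygen, and complex V lets protons flow back to make ATP. Most subunits are coded in the nucleus, and assembly factors that are not part of the finished enzyme build each complex.

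Values are log2 signals, so a difference of 1 is a 2-fold change, and levels of different probe sets are not set against each other. Across the arrays the upper quartile of all genes lay between 7.39 and 7.59 and the lower quartile between 3.47 and 3.59. Of the 82 subunit genes, 71 had all 9 values at 9 or more, and 10 had a mean under 7.39. Cell type markers set the groups apart. Basal markers were higher in 7 of 9 genes in yMaSC organoids and in 6 of 9 in MaSC organoids. Luminal markers were lower in 7 of 9 genes and higher in 1 in both kinds of organoid. LD cells were sorted from lineage-negative, EpCAM-positive cells, a gate that would remove most leukocytes, and the leukocyte markers below were higher in them than in organoids. The leukocyte list (Ptprc, Cd52, Laptm5, Cd74, Cd3e, Cd79a, Lyz2, Csf1r and Coro1a) was lower in all 9 genes in both kinds of organoid, with a summed log2 level of 7.70 to 7.78 in yMaSC organoids, 7.76 to 8.05 in MaSC organoids and 10.57 to 11.24 in LD cells. Ptprc, which marks all leukocytes, had 2.64, 2.86 and 2.99 in yMaSC organoids, 2.82, 2.98 and 2.70 in MaSC organoids and 8.94, 8.49 and 8.17 in LD cells. Fibroblast markers were lower in 3 of 6 genes and higher in 1 in both kinds of organoid, with summed levels of 9.55 to 10.32, 10.01 to 11.23 and 10.50 to 12.47 in yMaSC organoids, MaSC organoids and LD cells. The part of such cells in the differences below was not tested, and in such bulk samples fewer cells of a type and less RNA per cell cannot be told apart.

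Most subunit genes differed little between organoids and LD cells. The genes that were higher in both kinds of organoid all belong to complexes I and II. In yMaSC organoids 15 of 82 subunit genes were higher than in LD cells and 5 were lower (limma across all genes, adjusted p under 0.05), against 21.6% higher and 14.3% lower among all 18194 genes. In MaSC organoids 16 were higher and 7 lower, against 22.1% and 15.2%. The same 15 genes were higher and the same 5 lower in both comparisons, which share the LD arrays, and 59 passed in neither. The median absolute difference was 0.15 over the subunit genes in yMaSC organoids and 0.16 in MaSC organoids. Differences of at least 2-fold that passed the test were seen in 2 genes in yMaSC organoids (Cycs and Cox7c) and in 3 in MaSC organoids (Cycs, Cox7c and Ndufb1), all lower. The counts depended on scaling. With each array set to the same median, which lowered every difference by 0.26 in yMaSC organoids and by 0.25 in MaSC organoids, 4 subunit genes were higher and 26 lower in yMaSC organoids, and 5 were higher and 28 lower in MaSC organoids, while the median of all genes was then -0.27 in both. Of all 18194 genes, 2798 were higher and 6930 lower in yMaSC organoids on that scale, and 3001 and 6993 in MaSC organoids. With cyclic loess the split was 10 higher and 9 lower in yMaSC organoids and 9 higher and 11 lower in MaSC organoids. Among all genes cyclic loess gave 3223 higher and 3247 lower in yMaSC organoids, and 3287 and 3362 in MaSC organoids. Ndufv3, Ndufv2 and Ndufs3 stayed higher and Cycs and Ndufb1 stayed lower, past the threshold in both comparisons, under all 20 alternatives of scaling, fit, probe set rule and array left out.

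**Figure D1:**
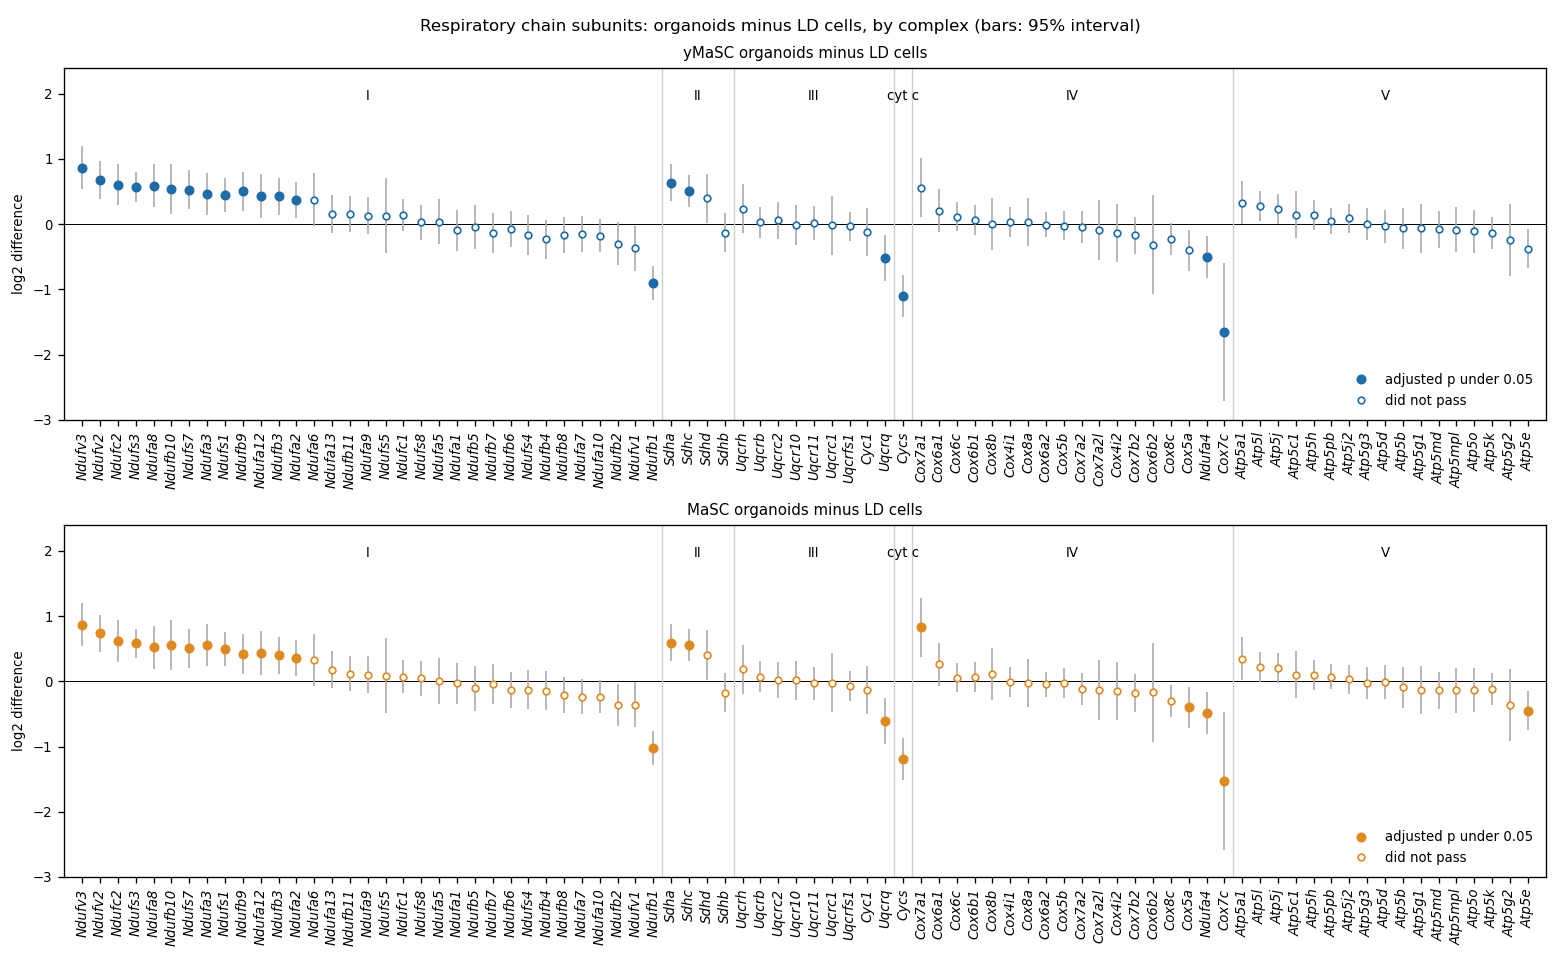
Log2 difference from LD cells of each of the 82 subunit genes, in yMaSC organoids (top) and MaSC organoids (bottom), grouped by complex and ordered by size, with 95% intervals from limma. Filled points passed an adjusted p under 0.05: they lie mostly at the upper end of complex I, at Sdha and Sdhc, and at the lower end with Ndufb1, Uqcrq, Cycs, Ndufa4 and Cox7c.

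In complex I, 13 of 33 genes were higher in each kind of organoid and 1, Ndufb1, was lower. The shares of all genes beside the counts of each complex were 21.6% higher and 14.3% lower in yMaSC organoids. In MaSC organoids they were 22.1% and 15.2%. The complex I gene with the largest rise was Ndufv3, an accessory subunit at the NADH-oxidising tip. Ndufv3 had 11.23, 11.40 and 11.62 in yMaSC organoids A, B and C, 11.28, 11.37 and 11.60 in MaSC organoids, and 10.51, 10.40 and 10.74 in LD cells. All 6 organoid arrays lay above all 3 LD arrays, and the difference was 0.87 ± 0.14 (SE, n = 3 arrays a group) in both kinds of organoid, a 1.82-fold rise, with limma adjusted p = 0.0017 in yMaSC and 0.0016 in MaSC organoids. Ndufv2, an iron-sulfur subunit of the same module, had 11.49, 11.44 and 11.29 in yMaSC organoids, 11.42, 11.42 and 11.55 in MaSC organoids, and 10.65, 10.56 and 10.98 in LD cells. Again the groups did not overlap, and the gene was 1.60-fold higher in yMaSC organoids (limma adjusted p = 0.0032) and 1.66-fold higher in MaSC organoids (limma adjusted p = 0.0020). All 3 probe sets of Ndufv2 were higher.

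Ndufs3, a core subunit of the module that passes electrons to ubiquinone, was close to constant among organoids, with 10.72, 10.69 and 10.65 in yMaSC organoids and 10.68, 10.68 and 10.75 in MaSC organoids, against 9.99, 10.09 and 10.29 in LD cells. It was 1.48-fold higher in yMaSC organoids and 1.49-fold higher in MaSC organoids, with limma adjusted p of 0.0024 and 0.0020. Ndufc2, an accessory subunit of the membrane arm, had 12.34, 12.33 and 12.00 in yMaSC organoids, 12.31, 12.34 and 12.05 in MaSC organoids, and 11.44, 11.73 and 11.68 in LD cells, so that the lowest organoids, both labelled C, still lay above every LD array. Its rise was 1.52-fold in yMaSC organoids and 1.53-fold in MaSC organoids, and 3 of its 4 probe sets were higher.

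The other 9 complex I genes that were higher in both comparisons are given here because they passed, and were chosen after their values were seen. In the matrix arm they were Ndufs1, the large iron-sulfur subunit (0.45 in yMaSC and 0.50 in MaSC organoids), Ndufs7, which lies by the ubiquinone site (0.53 and 0.51), and the accessory subunits Ndufa2 (0.37 and 0.36) and Ndufa12 (0.44 and 0.44). In the membrane arm they were the accessory subunits Ndufa3 (0.46 and 0.55), Ndufa8 (0.59 and 0.52), Ndufb3 (0.43 and 0.40), Ndufb9 (0.50 and 0.42) and Ndufb10 (0.54 and 0.56). Adjusted p for these genes ran between 0.0085, for Ndufs1 in MaSC organoids, and 0.048, for Ndufa12 in yMaSC organoids (limma). A second probe set of Ndufa12 was lower by 1.12 in yMaSC organoids and by 1.02 in MaSC organoids, so that the direction of this gene depended on the probe set. With the replicate letter as a block, Ndufa12 passed in neither comparison (0.44 in both) and Ndufa3 not in yMaSC organoids (0.46). Here and below, that block also ties LD cells to organoids by letter. Same-lettered LD cells and organoids did not deviate together (correlations of -0.05 to 0.05), so the letters give no ground for it there.

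The only lower gene of complex I was Ndufb1, a small accessory subunit of the membrane arm. Ndufb1 had 6.14, 6.08 and 6.20 in yMaSC organoids, 5.96, 5.97 and 6.11 in MaSC organoids, and 7.17, 6.82 and 7.12 in LD cells. Every organoid array lay below every LD array. The gene was 1.86-fold lower in yMaSC organoids and 2.03-fold lower in MaSC organoids, with limma adjusted p of 0.00043 and 0.00019.

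By arm, 7 of 14 matrix arm genes were higher in each kind of organoid and none was lower, with a median of 0.37 in yMaSC and 0.34 in MaSC organoids. In the membrane arm 6 of 18 were higher and 1 lower, with medians of 0.05 and 0.02. Of the 6 core subunits of complex I, 4 were higher in each kind of organoid (Ndufs1, Ndufs3, Ndufs7 and Ndufv2). The other core subunits gave differences of -0.37 for Ndufv1, which holds the NADH site, and 0.03 for Ndufs8 in yMaSC organoids, and neither passed.

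Several of the smaller rises lost their call when 1 array was left out. Of the 15 genes higher in both comparisons, 6 kept both calls whichever array was left out (Ndufc2, Ndufs3, Ndufv2, Ndufv3, Sdha and Sdhc). Without yMaSC organoid B 9 genes were higher in yMaSC organoids, in place of 15, while among all genes 3166 were, in place of 3927. Without MaSC organoid A, B or C the number higher in MaSC organoids was 10, 9 and 10, in place of 16. Among all genes it was 3316, 3376 and 3636, in place of 4028. In yMaSC organoids Ndufa2 and Ndufa12 each lost the call without 7 of the 9 arrays. The differences were 0.25 to 0.39 for Ndufa2 and 0.30 to 0.44 for Ndufa12 in those fits. These arrays include MaSC organoids A, B and C, which do not enter the yMaSC difference. Without any of them it stayed at 0.37 for Ndufa2 and 0.44 for Ndufa12, and only the estimate of spread and the adjustment changed. Other calls were also lost while the difference hardly moved. Ndufs1 in yMaSC organoids had 0.41 without yMaSC organoid B, and Ndufs7 in MaSC organoids 0.48 without MaSC organoid A or B. Ndufb10 lost its call in both comparisons without MaSC organoid A or B, and over all arrays that ended a call its differences were 0.48 to 0.54 in yMaSC and 0.55 to 0.57 in MaSC organoids. LD A or B ended the calls of Ndufb9 in both comparisons and of Ndufa8 in MaSC organoids, with lowest differences of 0.43 and 0.34 for Ndufb9 in yMaSC and MaSC organoids and 0.42 for Ndufa8. Without LD A, Ndufb3 in both comparisons and Ndufa3 in yMaSC organoids no longer passed, with lowest differences of 0.31 and 0.28 for Ndufb3 in yMaSC and MaSC organoids and 0.30 for Ndufa3. Other arrays that ended calls of these genes were yMaSC organoids A, B and C, MaSC organoids A, B and C and LD C. None of these omissions turned a direction.

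Complex II, which is also the succinate dehydrogenase of the citric acid cycle, is coded in the nucleus alone, and 2 of its 4 genes were higher in both kinds of organoid. Sdha, the flavoprotein that oxidises succinate, had 10.99, 11.14 and 10.84 in yMaSC organoids, 11.00, 11.00 and 10.84 in MaSC organoids, and 10.29, 10.23 and 10.54 in LD cells. The groups did not overlap, and the rise was 1.55-fold in yMaSC organoids and 1.51-fold in MaSC organoids, with limma adjusted p of 0.0036 and 0.0049. Sdhc, a membrane anchor that carries haem b with Sdhd, had 10.24, 10.41 and 10.22 in yMaSC organoids, 10.28, 10.39 and 10.37 in MaSC organoids, and 9.65, 9.78 and 9.93 in LD cells. It was 1.42-fold higher in yMaSC organoids and 1.47-fold higher in MaSC organoids, with limma adjusted p of 0.0058 and 0.0032. The call rested on this probe set, since the other one of Sdhc gave 0.13 in both comparisons and did not pass.

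Sdhd, the other anchor, had 10.13, 10.08 and 10.38 in yMaSC organoids, 10.04, 10.12 and 10.45 in MaSC organoids, and 9.74, 9.58 and 10.08 in LD cells. yMaSC organoid B equalled LD C and MaSC organoid A lay below it, and the differences of 0.40 in each kind of organoid did not pass (limma adjusted p = 0.097 and 0.089). Without LD C, Sdhd passed in both comparisons, at 0.54, and with the replicate letter as a block it passed at 0.40. Sdhb, the iron-sulfur subunit, had 10.54, 10.52 and 10.51 in yMaSC organoids, 10.41, 10.38 and 10.65 in MaSC organoids, and 10.52, 10.52 and 10.92 in LD cells, and did not pass at -0.13 and -0.17. The median over the complex II genes was 0.45 in yMaSC organoids and 0.48 in MaSC organoids.

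In complex III, 0 of 9 genes were higher and 1 was lower in each kind of organoid. The lower gene was Uqcrq, a small accessory subunit, with 10.52, 10.20 and 10.17 in yMaSC organoids, 10.24, 10.10 and 10.31 in MaSC organoids, and 10.93, 10.52 and 11.01 in LD cells. yMaSC organoid A and LD B had the same value, and only the MaSC organoids lay wholly below LD cells. Uqcrq was 1.44-fold lower in yMaSC organoids (limma adjusted p = 0.028) and 1.52-fold lower in MaSC organoids (limma adjusted p = 0.015). The call in yMaSC organoids was lost without LD A (-0.47), LD C (-0.43), yMaSC organoid B (-0.48) or yMaSC organoid C (-0.46), and that in MaSC organoids without MaSC organoid B (-0.55). It was also lost with a dimmer probe set of another design, at -0.12 and -0.20. Another dim probe set passed as lower in both, at -0.42 and -0.47, so that 2 of the 4 probe sets of Uqcrq were lower. Cyc1, the cytochrome that hands electrons to cytochrome c, had differences of -0.12 and -0.14 and did not pass. Among the other complex III genes the differences lay between -0.08 and 0.24 over both comparisons, with the highest for the hinge protein gene Uqcrh.

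Cytochrome c was lower by more than 2-fold in both kinds of organoid. Cycs had 11.08, 10.76 and 10.85 in yMaSC organoids A, B and C, 10.86, 10.66 and 10.90 in MaSC organoids, and 11.85, 12.24 and 11.90 in LD cells. Every organoid array lay below every LD array. Means were 10.90 ± 0.17 in yMaSC organoids, 10.81 ± 0.13 in MaSC organoids and 12.00 ± 0.21 in LD cells (SD, n = 3 each). Cycs was thus 2.14-fold lower in yMaSC organoids and 2.28-fold lower in MaSC organoids, with limma adjusted p of 0.00042 and 0.00025. Of its 4 probe sets 3 were lower, and the fourth gave -0.09 in yMaSC organoids and 0.04 in MaSC organoids. Hccs, the enzyme that attaches haem to cytochrome c, was lower as well, with 7.95, 7.58 and 7.71 in yMaSC organoids, 7.86, 7.51 and 7.82 in MaSC organoids, and 8.49, 8.36 and 8.33 in LD cells.

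**Figure D2:**
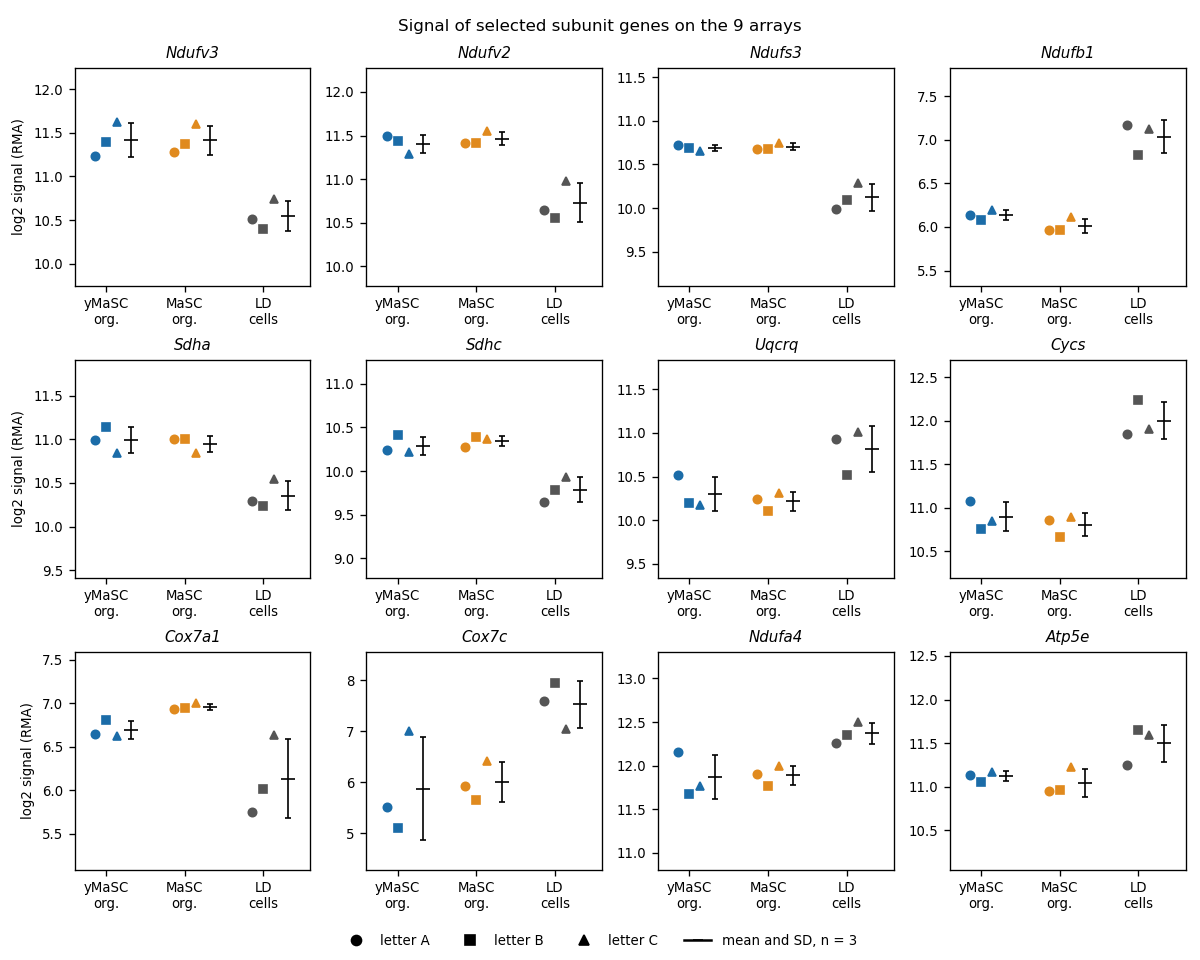
Log2 signal of 12 subunit genes on the 9 arrays, with yMaSC organoids, MaSC organoids and LD cells from left to right; symbols mark the replicate letters and black bars the mean and SD of 3 arrays. The axes differ between genes; Cycs and Ndufb1 lie lower and Ndufv3, Ndufv2, Ndufs3, Sdha and Sdhc higher in all 6 organoid arrays than in any LD array, and Cox7c has the widest spread.

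Promoters of the subunit genes were read for short sequence motifs of factors known to act on respiratory genes. RefSeq windows of 250 bases before to 50 bases after the gene start (build GRCm38.p6) were found for 67 of the 82 genes. Letters searched on both strands were GCGCATGC (core of the NRF1 motif), CCGGAAGT (the ETS motif, bound by GABP), AAGATGGCG (YY1), TCAAGGTCA (the motif of oestrogen-related receptors) and CCAAT. A gene was counted where any of its windows held the letters. The NRF1 core was in 10 of the 67 genes (14.9%), against 4.70% of the 14369 genes on the array with a window. The YY1 core was in 6 (8.96%, against 2.54%), the receptor motif in 2 (2.99%, against 0.404%), the ETS core in 5 (7.46%, against 6.65%) and CCAAT in 29 (43.3%, against 42.0%). Among genes with a window, the NRF1 core was in 1 of 11 higher in both comparisons. It was in 1 of 4 lower in both and in 8 of 49 called in neither. Because the core reads nearly alike on both strands, 1 site can match on each.

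4 windows show these motifs in genes that fell (Cycs) or rose (Ndufa8, Ndufs3 and Ndufs7), written along the gene's strand with matched letters in capitals. In Cycs, Ndufa8 and Ndufs3 the NRF1 and ETS cores lie on the opposite strand and so read GCATGCGC and ACTTCCGG. In Cycs (chr6:50566520-50566819, minus strand) the NRF1 core begins 60 bases before the gene start and a CCAAT box 31 bases before it. In Ndufa8 (chr2:36049289-36049588, minus strand) the NRF1 core begins 8 bases before the start. In Ndufs3 (chr2:90904672-90904971, minus strand) the ETS core begins at the start itself, and in Ndufs7 (chr10:80249199-80249498, plus strand) the YY1 core begins 24 bases after it. A match marks letters only, not a bound site.
Cycs: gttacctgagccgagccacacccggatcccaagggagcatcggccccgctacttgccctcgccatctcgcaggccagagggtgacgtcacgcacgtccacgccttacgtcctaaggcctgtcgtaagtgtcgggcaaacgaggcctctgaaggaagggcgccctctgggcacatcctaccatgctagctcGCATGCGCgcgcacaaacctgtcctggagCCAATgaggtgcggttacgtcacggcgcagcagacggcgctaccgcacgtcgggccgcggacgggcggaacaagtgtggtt
Ndufa8: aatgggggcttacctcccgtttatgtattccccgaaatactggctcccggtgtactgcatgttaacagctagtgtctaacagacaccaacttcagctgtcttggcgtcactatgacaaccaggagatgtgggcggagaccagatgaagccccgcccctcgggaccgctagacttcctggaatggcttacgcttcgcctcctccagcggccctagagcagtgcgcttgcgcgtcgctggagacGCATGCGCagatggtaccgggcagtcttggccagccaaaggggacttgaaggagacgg
Ndufs3: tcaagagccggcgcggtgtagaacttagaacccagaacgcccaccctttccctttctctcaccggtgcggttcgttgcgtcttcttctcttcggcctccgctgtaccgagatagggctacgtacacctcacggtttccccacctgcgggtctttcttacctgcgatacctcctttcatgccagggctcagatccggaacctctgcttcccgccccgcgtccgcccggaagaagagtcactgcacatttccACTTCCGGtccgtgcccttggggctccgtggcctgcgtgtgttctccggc
Ndufs7: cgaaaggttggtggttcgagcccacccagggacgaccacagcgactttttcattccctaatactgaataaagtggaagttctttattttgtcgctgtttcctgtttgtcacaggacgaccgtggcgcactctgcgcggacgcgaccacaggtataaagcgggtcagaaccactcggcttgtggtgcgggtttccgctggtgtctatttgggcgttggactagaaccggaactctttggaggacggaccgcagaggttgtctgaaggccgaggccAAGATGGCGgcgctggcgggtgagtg

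In complex IV most genes did not differ between organoids and LD cells. None of 18 was higher and 2 were lower in yMaSC organoids, and 1 was higher and 3 were lower in MaSC organoids. Ndufa4, long assigned to complex I, had 12.16, 11.68 and 11.77 in yMaSC organoids, 11.90, 11.77 and 11.99 in MaSC organoids, and 12.26, 12.35 and 12.50 in LD cells. Organoids lay below LD cells throughout, and the gene was 1.41-fold lower in yMaSC organoids (limma adjusted p = 0.023) and 1.40-fold lower in MaSC organoids (limma adjusted p = 0.026). The call in yMaSC organoids was lost without LD C (-0.44), yMaSC organoid B (-0.41) or yMaSC organoid C (-0.45), and that in MaSC organoids without LD C (-0.42), MaSC organoid A (-0.49) or MaSC organoid B (-0.43). Its paralogue Ndufa4l2, a gene induced by low oxygen, gave differences of 0.08 and 0.00 and did not pass.

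Cox7c, a small subunit, had 5.52, 5.09 and 7.01 in yMaSC organoids, 5.93, 5.64 and 6.42 in MaSC organoids, and 7.60, 7.94 and 7.04 in LD cells. yMaSC organoid C (7.01) and LD C (7.04) lay close together. The gene was 3.15-fold lower in yMaSC organoids and 2.89-fold lower in MaSC organoids, but the standard error was 0.47 and the probe set was dim, with limma adjusted p of 0.023 and 0.031. Its other probe set gave -0.83 in yMaSC organoids, which did not pass, and -1.04 in MaSC organoids, which did. The first call was lost without LD A (-1.62), LD B (-1.45), yMaSC organoid A (-1.48) or yMaSC organoid B (-1.26), and the second without LD A (-1.49), LD B (-1.32), MaSC organoid A (-1.50) or MaSC organoid B (-1.35). Cox5a, a matrix-side subunit, had 12.07, 11.74 and 11.60 in yMaSC organoids, 11.93, 11.72 and 11.76 in MaSC organoids, and 12.20, 12.09 and 12.32 in LD cells. Its difference of -0.40 lay at the threshold in both, with limma adjusted p of 0.051 in yMaSC and 0.049 in MaSC organoids. The call in MaSC organoids was lost without any of LD A, LD C, MaSC organoids A, B and C and yMaSC organoid B, with differences of -0.46 to -0.34, and in yMaSC organoids it was gained without yMaSC organoid A (-0.53) or with the letter as a block (-0.40).

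Complex IV has subunits with a general form and a form of muscle, heart, lung or testis. Cox7a1, the form of heart and skeletal muscle, had 6.65, 6.81 and 6.62 in yMaSC organoids, 6.93, 6.95 and 7.00 in MaSC organoids, and 5.75, 6.02 and 6.63 in LD cells. LD C stood above the other LD arrays and reached the level of yMaSC organoids. Cox7a1 was 1.77-fold higher in MaSC organoids (limma adjusted p = 0.010) and did not pass in yMaSC organoids, at 0.56 ± 0.20 (SE, n = 3 arrays a group, limma adjusted p = 0.056), where it passed without LD C (0.81). Its general partner Cox7a2 gave -0.04 and -0.12. The other tissue forms in these pairs did not pass in either comparison. Cox4i2 lay between 4.57 and 5.27, Cox6a2 between 5.09 and 5.23, Cox8b between 4.03 and 4.65, Cox7b2 between 2.72 and 3.25 and Cox8c between 7.05 and 7.51. Cox8c depended on scaling, and passed as lower in yMaSC and MaSC organoids with quantile normalization (-0.51 and -0.58), cyclic loess (-0.46 and -0.55) and a common median (-0.48 and -0.55). In MaSC organoids it also passed with array weights (-0.36) and without LD B (-0.37). The general forms Cox4i1, Cox6a1, Cox6b1 and Cox8a gave differences between -0.03 and 0.26. Of the 11 skeletal muscle markers, 1 was higher in yMaSC organoids and none in MaSC organoids, with summed levels of 8.56 to 10.51 in yMaSC organoids, 8.49 to 9.22 in MaSC organoids and 8.11 to 8.54 in LD cells. The higher marker was the oxygen store myoglobin (Mb, 2.45). Of the 5 brown fat markers measured, which include Cox7a1 and Cox8b, Cidea was lower in both (-3.67 and -3.79), while Ucp1 lay between 3.57 and 3.97 on all arrays. Whether cells of either kind shaped the Cox7a1 values was not tested.

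In complex V, the ATP synthase, few genes moved. None of 17 genes passed in yMaSC organoids, where differences ran from -0.38 to 0.33 and 3 had an unadjusted p under 0.05, and 1 was lower in MaSC organoids. That gene was Atp5e, the epsilon subunit of the central stalk, with 11.13, 11.06 and 11.17 in yMaSC organoids, 10.95, 10.96 and 11.23 in MaSC organoids, and 11.25, 11.65 and 11.59 in LD cells. MaSC organoid C and LD A nearly met. Atp5e was 1.37-fold lower in MaSC organoids (limma adjusted p = 0.027) and 1.30-fold lower in yMaSC organoids without passing (limma adjusted p = 0.055). The call in MaSC organoids was lost without LD B (-0.37), LD C (-0.40), MaSC organoid A (-0.40) or MaSC organoid B (-0.41), and the gene passed in yMaSC organoids without LD A (-0.50) or with the letter as a block (-0.38). Of the catalytic subunits, Atp5a1 gave 0.33 and 0.35 and Atp5b -0.07 and -0.09, and neither passed. 3 genes code for the identical mature subunit c of the rotor ring. Atp5g1 gave -0.07 and -0.13, Atp5g2 -0.24 and -0.36, and Atp5g3 0.00 and -0.02 in yMaSC and MaSC organoids. Without both C organoids Atp5g2 passed as lower in both comparisons, at -0.50 and -0.56. A second, dimmer probe set of Atp5g1 was higher, by 1.28 and 1.30.

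Set side by side, the complexes differed in the median over their genes. Complex I had 0.14 in yMaSC and 0.10 in MaSC organoids, complex II 0.45 and 0.48, complex III -0.02 and -0.02, complex IV -0.04 and -0.08, and complex V -0.04 and -0.02, against -0.01 and -0.02 for all genes. On the common-median scale, where all genes stood at -0.27, the values were -0.12 and -0.14 for complex I, 0.19 and 0.24 for complex II, -0.27 and -0.27 for complex III, -0.29 and -0.33 for complex IV, and -0.29 and -0.27 for complex V. By array, the complex II median lay between 0.37 and 0.54 above the LD mean in all 6 organoids. LD arrays spread more than organoids, with a median SD over the subunit genes of 0.18 in LD cells, against 0.11 in yMaSC organoids and 0.10 in MaSC organoids. LD C was the highest LD array in 54 of the 82 genes and LD A the lowest in 50.

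**Figure D3:**
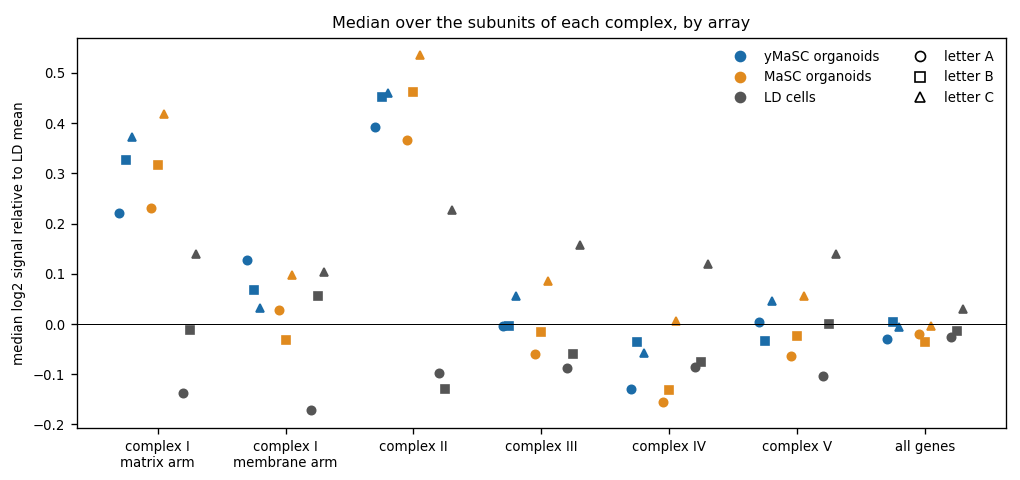
Median over the subunit genes of each complex on each array, as log2 signal relative to the mean of the LD arrays, with yMaSC organoids, MaSC organoids and LD cells from left to right and symbols for the replicate letters. The complex I matrix arm and complex II lie above all LD arrays in all 6 organoids, while complexes III, IV and V overlap.

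No subunit gene passed between the kinds of organoid. In yMaSC against MaSC organoids, 0 of 82 subunit genes passed, as 0 of all 18194 genes did (0%, limma), and 0 of the 82 had an unadjusted p under 0.05. Differences ran from -0.27, for Cox7a1, to 0.13, for Ndufb1. With the letter as a block among the organoid arrays, fitted as a fixed or a random term, the count was also 0. The 95% interval of the difference lay within 2-fold in either direction for 81 of the 82 genes, Cox7c being the exception with -1.19 to 0.94. For Cycs the interval was -0.23 to 0.41 and for Ndufv3 it was -0.33 to 0.33, so that smaller differences were not detectable in this fit. With the letter as a block in the organoids alone, the interval lay within 2-fold for all 82 genes, and was -0.13 to 0.31 for Cycs and -0.19 to 0.19 for Ndufv3. In that fit 1 gene, Cox7a1, had an unadjusted p under 0.05 (-0.27, interval -0.48 to -0.06), with a limma adjusted p of 0.96.

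The labels give the letters as replicate names only, and what the organoids of a letter share is not stated. A test of the letter over the 6 organoids passed in 3 of 82 subunit genes, against 5.52% of all genes. Cox6b2, the testis form of a complex IV subunit, had 5.98 and 6.10 in the B organoids of yMaSCs and MaSCs, against 4.95 to 5.18 in the A and C organoids (limma adjusted p = 0.014). Atp5g2 had 11.89 in yMaSC organoid C and 11.65 in MaSC organoid C, and 10.97 to 11.20 in the others (limma adjusted p = 0.036). Cox7a2l, which helps complexes III and IV to join, had 11.69 and 11.60 in the C organoids and 11.01 to 11.21 in the others (limma adjusted p = 0.043). In 41 of the 82 genes the C organoids had the highest mean and in 20 the lowest. The C organoids also stood apart in the low-oxygen gene Bnip3 and the cell cycle gene Mki67, both picked after their values were seen. Other low-oxygen genes, given below, did not set MaSC organoid C apart. In Car9 it lay between MaSC organoids A and B, and in Pdk1 it lay below yMaSC organoid B. Bnip3 had 12.74 in yMaSC organoid C and 11.12 in MaSC organoid C, against 10.03 to 10.78 in the other organoids, and Mki67 had 8.30 and 8.37 against 4.88 to 5.39. The part of either in the letter values was not tested.

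Subunit genes were not all read alike by their probe sets. Of the 82 genes, 49 had more than 1 probe set, which left 86 besides those used. In yMaSC organoids 12 of the 86 were called as the used probe set was and 1 against it (Ndufa12), and 8 genes that were not called had another probe set that was. In MaSC organoids those counts were 12, 2 (Ndufa12 and Ndufa3) and 8. The widest gaps were in Uqcr10, where both other probe sets were higher, by up to 3.61 in yMaSC and 3.36 in MaSC organoids, while the used one gave -0.02 and 0.01, in Ndufs4, where 1 was higher and 2 were lower (-2.35 to 0.77 in yMaSC organoids), and in Ndufb8, where 1 was higher by 1.94 and 1.95. These genes were named after their values were seen.

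The genes that build the complexes had a median absolute difference of 0.58 in yMaSC organoids and 0.51 in MaSC organoids, against 0.15 and 0.16 for the subunit genes and 0.31 and 0.32 for all genes. These gaps were not tested. Of 50 assembly factor genes, 27 were higher and 2 lower in yMaSC organoids, and 24 were higher and 2 lower in MaSC organoids, with medians of 0.53 and 0.48. That is 54% and 48% higher, beside 21.6% and 22.1% of all genes, and 4% lower in both, beside 14.3% and 15.2%. Setting each array to the same median lowers these differences too, by 0.26 in yMaSC and 0.25 in MaSC organoids. The assembly factor counts were not read on that scale. Factors of complex I were higher in 9 of 18 genes in yMaSC and 8 of 18 in MaSC organoids, with none lower. Tmem126b, part of the assembly complex of the membrane arm, had 7.12, 6.84 and 6.46 in yMaSC organoids, 7.07, 6.78 and 6.88 in MaSC organoids, and 3.73, 4.30 and 4.37 in LD cells, a difference of 2.67 and 2.78. In the same assembly complex Acad9 gave 1.77 and 1.76 and Ndufaf1 1.51 and 1.53. All 4 factors of complex II were higher in both kinds of organoid. Sdhaf4, which acts on the flavoprotein Sdha, gave 1.55 and 1.62, and Sdhaf2, which helps FAD onto Sdha, 0.92 and 0.93.

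For complex III 3 of 6 factors were higher and 1 was lower in both. Uqcc1, Uqcc2 and Uqcc3, which act on newly made cytochrome b, gave 0.67, 1.06 and 0.76 in yMaSC organoids and 0.64, 1.08 and 0.74 in MaSC organoids, and Ttc19 gave -0.66 and -0.61. For complex IV 8 of 19 were higher in yMaSC and 7 in MaSC organoids, with 1 lower. Coa6, which works in copper delivery, had 9.30, 9.27 and 9.49 in yMaSC organoids, 9.33, 9.30 and 9.46 in MaSC organoids, and 7.16, 7.45 and 7.49 in LD cells, and was 3.96-fold higher in yMaSC and 3.99-fold higher in MaSC organoids. Cox15, which makes haem a, gave 1.30 and 1.22 and Coa3, which acts with the Cox1 subunit, 1.06 and 1.06, while the copper chaperone Cox17 was lower (-0.62 and -0.70). For complex V, 4 of 4 factors were higher in yMaSC and 3 of 4 in MaSC organoids, among them Tmem70 (1.19 and 1.17), Atpaf1 (0.86 and 0.95) and Atpaf2 (0.90 and 0.84).

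**Figure D4:**
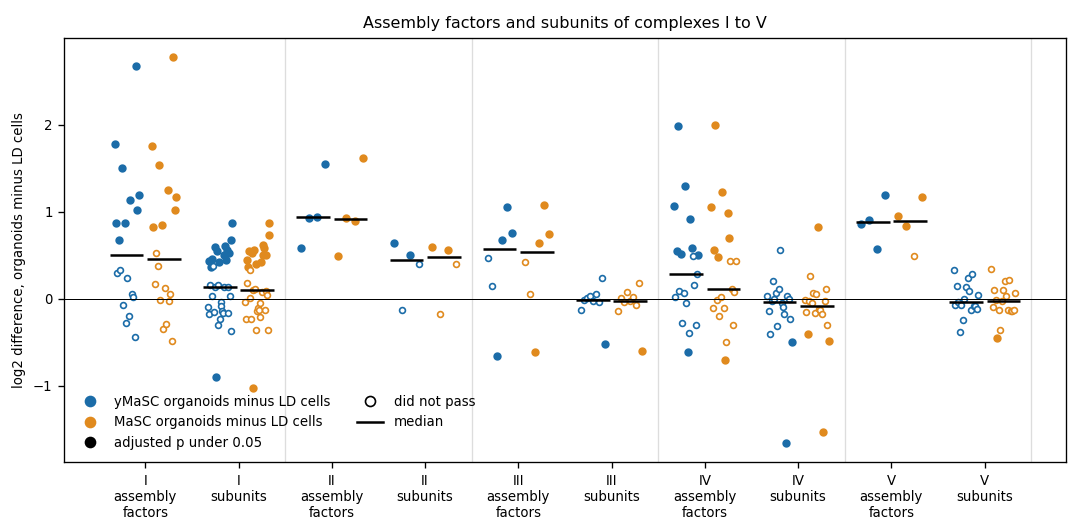
Log2 difference from LD cells of the assembly factor genes and the subunit genes of complexes I to V, in yMaSC organoids and MaSC organoids side by side. Each point is a gene, read by its brightest probe set and filled where the adjusted p was under 0.05, and the bars are medians. Assembly factors reach 2.78 (Tmem126b in MaSC organoids) and no subunit gene exceeds 0.87. Dimmer probe sets, which are not shown, go higher in some subunit genes, up to 3.61 for Uqcr10 in yMaSC organoids.

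Ubiquinone and haem genes were mixed. Beside the counts of this and the following lists, 21.6% of all genes were higher and 14.3% lower in yMaSC organoids. In MaSC organoids the shares were 22.1% and 15.2%. Of 13 genes for the maturation of cytochrome c and the synthesis of ubiquinone, 6 were higher and 2 lower in both kinds of organoid. Coq9 gave 1.73 and 1.71 and the methyltransferase Coq3 1.17 and 1.15. Coq10b, a ubiquinone-binding protein, was lower, with 9.61, 8.94 and 9.00 in yMaSC organoids, 9.13, 8.89 and 8.68 in MaSC organoids, and 11.26, 11.17 and 11.25 in LD cells. Of 13 genes that keep and transcribe mitochondrial DNA, 7 were higher in yMaSC and 8 in MaSC organoids and 1 was lower in both. Mterf1a, a terminator of mitochondrial transcription, gave 2.23 and 2.19, the elongation factor Tefm 1.92 and 1.92, and the RNA polymerase Polrmt 1.20 and 1.20.

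Regulators of mitochondrial biogenesis went both ways, with 4 of 13 higher and 4 lower in yMaSC organoids, and 3 higher and 4 lower in MaSC organoids. Ppargc1a, the PGC-1α coactivator, had 5.43, 5.47 and 7.45 in yMaSC organoids, 5.39, 5.40 and 6.57 in MaSC organoids, and 4.10, 4.62 and 4.07 in LD cells, and the C organoids were the highest. Its difference passed in yMaSC organoids (1.85) and not in MaSC organoids (1.52, limma adjusted p = 0.056). The nuclear receptor Esrra, an activator of respiratory genes, was higher (1.10 and 1.08), and its relative Esrrg (-1.19 and -1.27), the ETS factor subunit Gabpb1 (-1.26 and -1.30) and Nrf1 (-0.45 and -0.49) were lower.

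Upstream of the chain the citric acid cycle changed little. Of 12 genes none was higher and 2 were lower in both, the oxoglutarate dehydrogenase parts Dlst (-0.64 and -0.62) and Dld (-0.41 and -0.39). Of 11 genes for pyruvate dehydrogenase and its control, 5 were higher in both, with 1 lower in yMaSC and 2 in MaSC organoids. The kinase Pdk1, which switches the enzyme off, had 9.10, 9.75 and 10.42 in yMaSC organoids, 9.44, 9.53 and 9.71 in MaSC organoids, and 7.64, 6.93 and 8.02 in LD cells, and the phosphatase Pdp1, which switches it on, was lower (-1.57 and -1.97). Another kinase, Pdk4, ran from 3.65 to 5.75 in yMaSC organoids, 3.12 to 6.18 in MaSC organoids and 5.80 to 9.80 in LD cells. Among 9 membrane carriers and channels Slc25a5, an ADP/ATP carrier, was lower (-0.65 and -0.75) and Vdac3 higher (0.48 and 0.45). The low-oxygen list was higher in 9 of 17 genes in yMaSC organoids, and higher in 7 and lower in 2 in MaSC organoids. Car9, a carbonic anhydrase of that response, had 8.56, 9.51 and 11.46 in yMaSC organoids, 8.80, 9.27 and 9.02 in MaSC organoids, and 5.83, 5.95 and 5.72 in LD cells, and Bnip3, a receptor for the removal of mitochondria, differed by 3.08 and 2.59. Whether oxygen supply played a part in the subunit values was not tested.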

How the data were processed

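RNA was extracted with Trizol and biotinylated cRNA was hybridised to Affymetrix mouse arrays. The authors deposited log2 values made by RMA (robust multi-array average), of a version not given in the sources read here, with 1 value a probe set and array. No scanner intensities were used. Of 45101 probe sets, 34958 named 1 gene, 932 several and 9211 none in the platform annotation, and 34754 of the first were found in RefSeq by identifier. Only probe sets of 1 gene were used, and the brightest by mean stood for its gene. There were 0 columns of other samples. Precision is set by how few arrays there are, and as nothing says that replicates came from separate animals, p-values measure the spread between these samples.

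The 3 groups were fitted together with limma 3.58.1 in R 4.3.3 over 18194 genes, and p-values were adjusted over all genes by Benjamini-Hochberg with a threshold of 0.05. The letter was tested by a moderated F test in the 6 organoid arrays. The script was tested on simulated data. Deviations from group means of same-lettered organoids of the 2 kinds correlated at 0.61 to 0.65, whereas those of LD cells and organoids correlated at -0.05 to 0.05. The letters were therefore taken to pair the organoids, on the data and not on the labels. A fit with the letter as a block was run beside the unblocked one. Over all arrays this block also ties LD cells to organoids, for which these correlations give no ground. Other alternatives were the scaling, the prior, array weights, the groups fitted, the probe set rule, a filter on low values and leaving out arrays. Readings of every probe set of a subunit gene were added after the data had been seen.

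The genes and lists were chosen with earlier results of these data known. By rule the text names complex II, Cyc1, Cycs, the isoform pairs of complex IV, the genes of subunit c, the 4 largest changes in each direction a complex among genes that passed, those past the letter test, and the 3 largest changes a list. All other genes named were chosen after their values were seen.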

Additional observations from a re-analysis of the deposited data

How the results depend on the processing

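Between yMaSC and MaSC organoids the count of subunit genes stayed at 0 under every alternative run. Against LD cells, the replicate letter was also used as a block over all arrays, although LD cells did not follow the letters of the organoids. It gave 15 genes higher and 7 lower in yMaSC organoids, and 16 higher and 8 lower in MaSC organoids. Among all genes it gave 4176 higher and 2761 lower in yMaSC organoids, and 4251 and 2926 in MaSC organoids. Under this block Sdhd passed in both comparisons, at 0.40, and Cox5a (-0.40) and Atp5e (-0.38) passed in yMaSC organoids, as did Ndufa6, while Ndufb2 passed as lower in MaSC organoids. Ndufa12 lost its call in both comparisons (0.44) and Ndufa3 in yMaSC organoids (0.46), and the block changed no other call of a subunit gene. With a common median 4 genes were higher and 26 lower in yMaSC organoids, and 5 and 28 in MaSC organoids. Beside them, 2798 of all 18194 genes were higher and 6930 lower in yMaSC organoids, and 3001 and 6993 in MaSC organoids. The medians were then -0.25 over all subunit genes, -0.12, 0.19, -0.27, -0.29 and -0.29 over complexes I to V in yMaSC organoids, and -0.26, -0.14, 0.24, -0.27, -0.33 and -0.27 in MaSC organoids. This scaling lowers every organoid value by construction. Cyclic loess gave 9 lower in yMaSC organoids and 9 higher and 11 lower in MaSC organoids, with complex II medians of 0.31 and 0.32. Among all genes it gave 3247 lower in yMaSC organoids, and 3287 higher and 3362 lower in MaSC organoids. The mean of all probe sets gave 8 lower in yMaSC organoids, beside 2805 of all genes, and complex II medians of 0.23 and 0.26. The compared groups alone gave 3 lower in yMaSC organoids, beside 2169 of all genes. Leaving out both C organoids gave 10 higher in MaSC organoids, beside 3847 of all genes. The letter test passed in 1 gene with a common median and in 6 with a trended and robust prior, in place of 3. Among all genes it passed in 1293 and 1536, in place of 1004. Apart from the common median, the cause of these shifts was not tested.

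With single arrays left out, 9 to 18 genes were higher and 2 to 5 lower in yMaSC organoids, with 2 lower without yMaSC organoid B and 3 without yMaSC organoid C or LD C. In MaSC organoids 9 to 15 were higher and 2 to 7 lower, with 3, 2 and 4 lower without MaSC organoid A, MaSC organoid B and LD C. The counts over all genes moved as well. They ran from 3166 to 3897 higher in yMaSC organoids and from 3316 to 4133 higher in MaSC organoids. Lower genes ran from 1963 to 2661 and from 2016 to 2795. Another probe set passed in the direction opposite to the one used in 7 genes (Atp5g1, Cox8a, Ndufa12, Ndufa3, Ndufb8, Ndufs4 and Uqcr10), in 1 or both comparisons. Ndufa12 gave -0.18 and -0.17 as a mean of its probe sets, and -1.12 and -1.02 from another probe set. Atp5g1 gave 0.61 and 0.58 as a mean, and Ndufa3 gave -0.45 from another probe set in MaSC organoids. With 3 arrays a group and most SEs near 0.13, smaller differences in single genes lie at the limit of the test.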

Other observations

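Other mitochondrial genes and antioxidant genes were also read. Of 7 antioxidant genes, not all of them particular to the mitochondrion, 4 were higher in both kinds of organoid and none was lower. Catalase (Cat) differed by 1.29 in yMaSC and 1.39 in MaSC organoids, the matrix superoxide dismutase Sod2 by 1.11 and 1.15, and Gpx4, which reduces lipid peroxides, by 1.10 and 0.99. Of 16 genes for cristae and protein import, 4 were higher and 2 lower in yMaSC organoids, and 4 were higher and 5 lower in MaSC organoids. Beside these counts and those below, 21.6% of all genes were higher and 14.3% lower in yMaSC organoids. In MaSC organoids the shares were 22.1% and 15.2%. Opa1, which shapes cristae, was higher (0.56 and 0.62), and the import receptor Tomm70a (-0.79 and -0.84) and the import motor part Timm44 (-0.68 and -0.71) were lower.

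Of 11 proliferation genes none was higher, 3 were lower in yMaSC organoids and 2 in MaSC organoids, with Mcm5 at -1.87 and -1.75. Heart and slow muscle markers were lower in 2 of 7 genes in both kinds of organoid, with summed log2 levels of 6.50 to 6.94 in yMaSC organoids, 6.54 to 6.74 in MaSC organoids and 7.18 to 7.52 in LD cells. Of 5 white fat and 6 endothelial markers none passed (limma), although LD cells ranged from 6.15 to 10.97 and from 6.55 to 8.43 in summed level. Of the 2 red blood cell markers measured, 1 was lower in yMaSC organoids and none in MaSC organoids.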
